A study of Homo sapiens with 4 samples.

Results

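Olfactory receptor genes of families 1 to 5 were read as a set of genes expected to be off in myeloid cells. The set held every named row of the array table whose symbol is OR, a family number from 1 to 5, a subfamily letter code and a member number, which gave 174 of 24241 genes. Symbols ending in P, which mark pseudogenes, and the higher-numbered families were left out by this rule, which used no measured value. The RNA came from MOLM-14, a human leukaemia line of monocytic type in long-term culture, and was read on 4 Affymetrix arrays, 2 per group. The GSK621 group was exposed for 6 h to 30 µM GSK621, which switches on AMPK, the kinase that senses low energy. The other group first had 12 h of 10 nM rapamycin, which blocks mTORC1, a kinase complex that drives growth, followed by GSK621 in the same way. Both groups thus carried GSK621, and cells without it or with rapamycin alone were not analysed here. The labels call the cultures biological replicates of 1 line.

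Olfactory receptors are G protein-coupled receptors that bind odorants on the cilia of sensory neurons in the nose. Each neuron uses 1 receptor gene and keeps the others closed in compacted chromatin, and a bound receptor signals through a G protein, adenylyl cyclase and a channel gated by cyclic nucleotides. The genes have a single coding exon, lie in clusters of similar copies, and transcripts of some have been described outside the nose. As a set they have no established role in myeloid cells, though 1 of them, OR2AT4, has been studied in leukaemia cells. Their array signal was therefore read as a range beside other dim genes. Whether each gene was off was not measured.

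All 174 receptor genes matched the RefSeq gene table of GRCh38.p14 by gene ID. There, 172 are protein-coding and 2, OR1D4 and OR4C45, are transcribed pseudogenes. They lie on 13 chromosomes, with 63 on chromosome 11, 30 on chromosome 1 and 16 on chromosome 9. Family 1 gave 27 genes, family 2 gave 59, family 3 gave 3, family 4 gave 41 and family 5 gave 44.

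The sequence before the annotated start differed from that of most genes. RefSeq windows of GRCh38.p14 covered 139 of the receptor genes with 142 starts. Of these, 65 starts (45.8%) lay directly on a start codon, against 2.29% of all 35116 windows, so the annotated start of those genes is the start of the coding sequence and no promoter can be read from it. For the other 77 windows, from 75 genes, the 250 bases before the start had a median GC content of 38.4%, with a range of 23.2% to 71.2%. The median over the 34311 windows of all genes that do not start on a start codon was 58.4%. The receptor windows held a median of 1 CG dinucleotide against 11. TAATTA, a core that homeodomain proteins bind and that reads the same on both strands, stood in 22.1% of the receptor windows and 4.27% of all. TATAAA on either strand stood in 19.5% and 10.6%. The palindromic motif of EBF factors stood in 1.3% and 1.06%. These are matches of letters, which AT-rich sequence favours for TAATTA and TATAAA, and no binding was measured.

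The 4 windows shown are those of the receptor gene with the highest mean signal (OR4C3, chr11:48324670-48324919, plus strand), the lowest (OR5H14, chr3:98147229-98147478, plus strand), the highest GC content (OR3A2, chr17:3386309-3386558, minus strand) and the smallest unadjusted p between treatments (OR2A14, chr7:144122926-144123175, plus strand), among genes whose start is not a start codon. Each gives the 250 bases before the annotated start, 5′ to 3′ on the gene's strand, with TAATTA and TATAAA, the latter on either strand, in capitals.
OR4C3: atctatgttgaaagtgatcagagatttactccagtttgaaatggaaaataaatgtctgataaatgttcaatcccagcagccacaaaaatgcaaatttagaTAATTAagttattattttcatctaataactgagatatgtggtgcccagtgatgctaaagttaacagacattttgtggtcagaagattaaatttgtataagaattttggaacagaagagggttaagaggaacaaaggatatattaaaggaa
OR5H14: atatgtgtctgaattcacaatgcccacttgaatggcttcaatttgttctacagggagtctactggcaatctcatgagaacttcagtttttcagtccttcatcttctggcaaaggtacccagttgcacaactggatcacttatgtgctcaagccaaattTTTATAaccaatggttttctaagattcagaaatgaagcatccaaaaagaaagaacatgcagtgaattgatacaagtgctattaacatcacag
OR3A2: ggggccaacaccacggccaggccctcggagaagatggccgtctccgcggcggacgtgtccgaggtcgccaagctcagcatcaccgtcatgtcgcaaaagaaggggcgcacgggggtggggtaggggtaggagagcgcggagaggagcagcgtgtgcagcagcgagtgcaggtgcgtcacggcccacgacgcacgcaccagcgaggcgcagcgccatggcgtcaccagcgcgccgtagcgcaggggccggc
OR2A14: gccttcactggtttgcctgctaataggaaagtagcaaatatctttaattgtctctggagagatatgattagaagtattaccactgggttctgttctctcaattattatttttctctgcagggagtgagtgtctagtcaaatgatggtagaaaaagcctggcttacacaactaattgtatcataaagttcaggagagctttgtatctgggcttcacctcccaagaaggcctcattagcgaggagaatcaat
OR4C3, with a GC content of 30.8% and no CG dinucleotide, had the brightest probe set of the set. OR3A2, with 71.2% and 31 CG dinucleotides, had a mean signal of 2.80. Across the 75 genes with such a window, mean signal and GC content had a Spearman correlation of 0.125 (Pearson 0.0757), against 0.345 (Pearson 0.339) across 16931 genes of the whole table. These are correlations across genes on the same 4 arrays, genes are not independent replicates, and the base composition of the array probes was not used here.

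The signal of the receptor genes lay low on every array. Values are on the log2 scale as deposited, and a value of 1 probe set depends on its probes as well as on its RNA, so an order of genes by signal is not an order of transcript amounts. The median over the 174 genes was 3.43 on both arrays of GSK621, 3.38 on replicate 1 of rapamycin then GSK621 and 3.40 on replicate 2. The median over all genes lay between 5.40 and 5.45 on the same arrays. The lower and upper quartiles of the receptor genes ran from 2.92 to 2.95 and from 4.17 to 4.33 over the arrays. Between 4 and 9 of the 174 genes lay above the median of all genes on any 1 array.

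**Figure D1:**
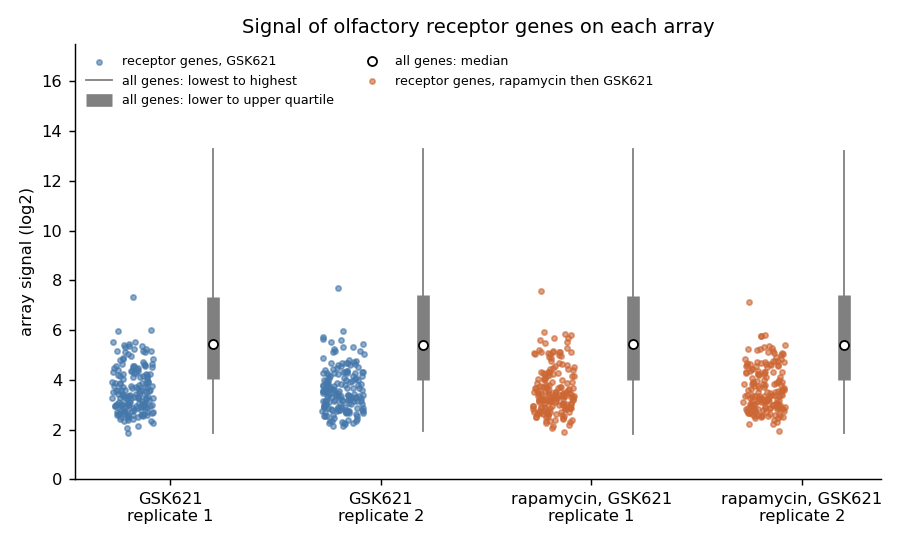
Signal of each of the 174 receptor genes on each of the 4 arrays (coloured points, log2), beside all 24241 genes of that array (grey: thin line from lowest to highest, thick line from lower to upper quartile, white point at the median). The 4 clouds of receptor genes cover nearly the same range, mostly below the median of all genes, with OR4C3 as the single point above 7.

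Averaged over the arrays, the receptor genes had a median signal of 3.40, at percentile 14.5 of all genes. With all genes cut into 4 equal bins by mean signal, 120 of the 174 (69.0%) were in bin 1, the dimmest, 50 in bin 2, 3 in bin 3 and 1 in bin 4. The lowest value of the set, 2.05, was close to the lowest of the whole table, 1.98. Signal differed between families, with a median of 3.85 in family 1, 3.56 in family 2, 3.31 in family 4 and 3.09 in family 5. The 3 genes of family 3 had 5.33, 5.09 and 2.80 for OR3A1, OR3A3 and OR3A2.

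Other families of genes with tissue-restricted use gave similar signals. The 180 olfactory receptor genes of the higher-numbered families had a median of 3.46, 27 beta-defensins, secreted antimicrobial peptides of epithelia, 3.37, 85 keratin-associated proteins of hair 3.72, 23 bitter taste receptors 3.83 and 4 vomeronasal receptors 2.99. The 8 pseudogene symbols of olfactory receptor families 1 to 5 had a median of 4.34. At the other end, 11 measured housekeeping genes of 15 listed ran from 7.71 to 12.4, above every receptor gene. Markers of the myeloid line, 14 measured of 16, had a median of 8.73, with FLT3, the receptor kinase of leukaemic blasts, at 10.4 and the granule proteins AZU1 and ELANE at 11.2 and 10.7. The monocyte receptor CD14, at 3.69, was the 1 marker of the 14 below the median of all genes. Markers of other cell types had medians of 4.36 for lymphoid, 4.73 for erythroid, 4.40 for epithelial and 4.75 for fibroblast genes. These lists were all chosen with earlier results of these data known.

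**Figure D2:**
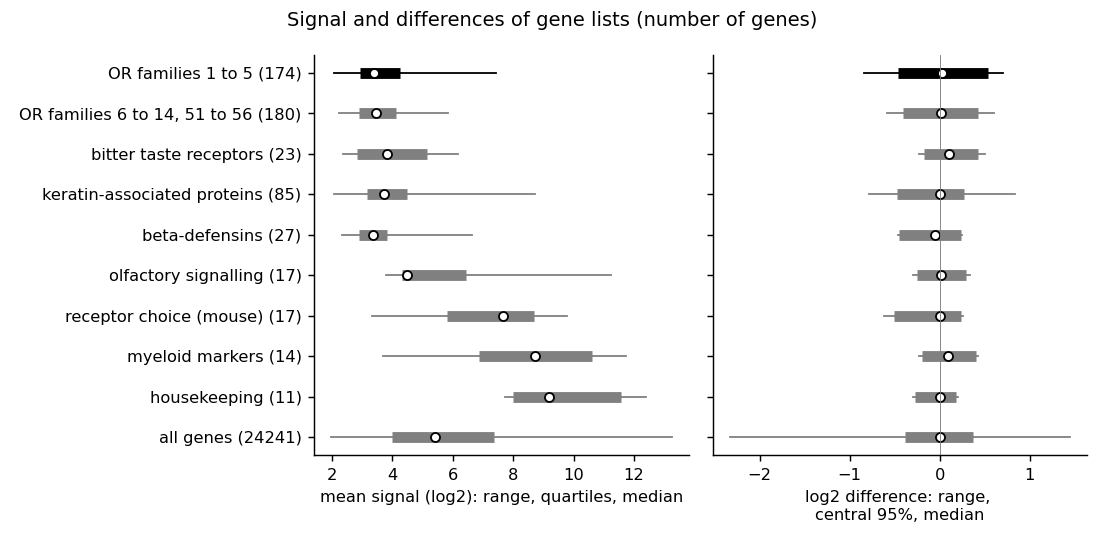
Left, mean signal over the 4 arrays (log2) for each gene list, with the range as a thin line, the quartiles as a thick line and the median as a white point; right, the log2 difference between treatments with its range, its central 95% and its median. The receptor genes (top, black) have a low median signal, as do the taste receptors, keratin-associated proteins and beta-defensins, and their differences are centred near 0.

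OR4C3 stood apart from the rest of the set. Its signal was 7.35 and 7.68 on the GSK621 arrays and 7.55 and 7.12 on those of rapamycin then GSK621, a mean of 7.43 at percentile 75.5 of all genes, and the groups overlapped. The log2 difference between treatments was −0.18 ± 0.19 (SE), and 0.04 without replicate 2 of rapamycin then GSK621. The next receptor gene, OR5C1, had a mean of 5.90. The measured genes nearest to OR4C3 on chromosome 11 were dim, with the receptor genes OR4S1 at 3.16 and OR4X1 at 3.75 on one side and OR4A47 at 3.31 on the other. OR5C1, whose values were 6.01 and 5.97 against 5.84 and 5.77, lies on chromosome 9 beside OR1K1 (4.51) and OR1L6 (2.43), with PDCL, a phosducin-like chaperone gene, at 7.43 beyond OR1K1. OR2T12 had a mean of 5.82 and OR1F1 of 5.51, and these 4 were the receptor genes above the median of all genes.

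Behind them came OR4C12 at 5.40, OR2W3, which has been studied in human tissues outside the nose, at 5.38, OR4D6 at 5.34, OR3A1, a receptor for the floral odorant helional, and OR2T3, both at 5.33, and OR1I1 at 5.28. The lowest means were those of OR5H14 (2.05), OR5H1 (2.19) and OR5K4 (2.27), all on chromosome 3, of OR2T29 (2.32) and of OR4C13 (2.40). OR4C12 and OR4C13, of 1 subfamily and both on chromosome 11, thus lay at opposite ends of the range. Over all 161 pairs of receptor genes that follow each other on a chromosome, the median distance in signal was 0.77, against 0.82 over all 15051 pairs.

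**Figure D3:**
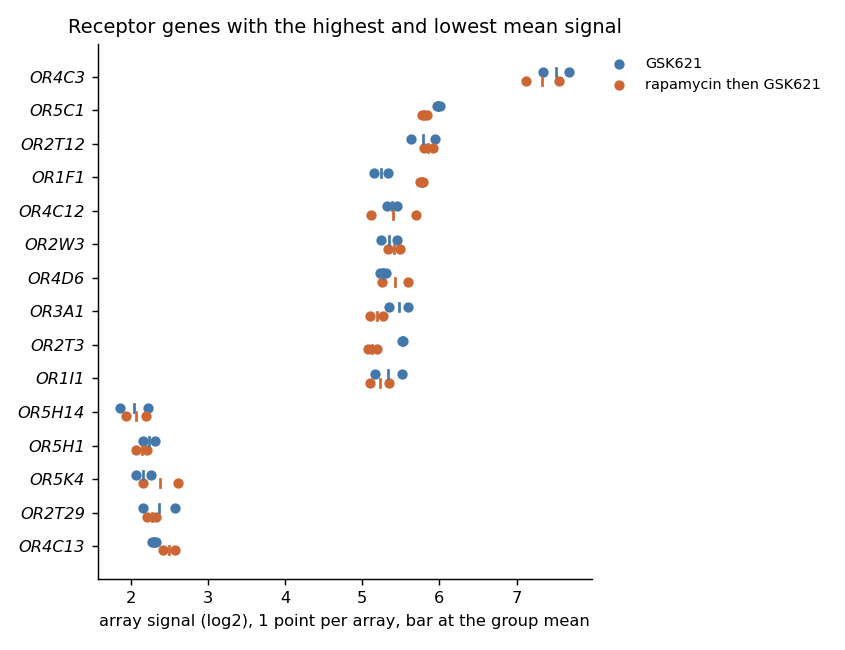
Signal (log2) of the 10 receptor genes with the highest and the 5 with the lowest mean, 1 point per array, coloured by group, with a bar at each group mean. OR4C3 lies above 7 on all 4 arrays, the points of the next 9 genes lie from 5.07 to 6.01, and those of the lowest 5 reach at most 2.61.

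Some receptor genes overlap other genes. Of the 174, 42 overlapped another RefSeq gene, and 9 overlapped a measured gene outside the set. OR2C1 had a mean of 2.41 and overlapped ZNF75A, a zinc finger gene at 8.07. OR2A4 had 2.41 and ENPP3, an ectonucleotidase, 3.48. OR2G2 (3.77) and OR2G3 (3.38) overlapped the long non-coding RNA gene LOC102724446 (5.94), and OR2L13 (4.15) overlapped the transcribed pseudogene OR2L1P (6.61). The signal of the receptor gene was the lower one in 8 of the 9, counting each with its brightest overlapping gene, and OR2W1 (3.93) with its antisense gene OR2W1-AS1 (3.30) was the exception. Receptor genes also have near-identical copies, whose probes can share signal. Their protein sequences were not compared here, so values of single genes in groups such as OR2A, OR2T and OR4F are uncertain.

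The receptors listed for known odorants or sites of study lay in the same range as the rest. Of 21 listed by name, 19 were measured, with a median signal of 3.37 and a range of 2.41 to 5.38. OR1A1 and OR1A2, receptors for citronellal, had means of 3.37 and 4.34, and OR1D2, a receptor for bourgeonal that has been studied in sperm, had 3.40. OR2AT4, a receptor for the sandalwood odorant Sandalore that has been studied in skin and leukaemia cells, had 3.33 and 3.81 on the GSK621 arrays and 3.15 and 3.94 on the others. Its replicates thus lay further apart than its group means, 3.57 ± 0.34 (SD, n = 2) after GSK621 and 3.55 ± 0.56 after rapamycin then GSK621. OR2W1 and OR1G1, broadly tuned receptors, had 3.93 and 3.29, and OR2T11, a receptor for small thiols, had 4.51. OR2J3, a receptor for the grassy odorant cis-3-hexen-1-ol, had 2.67. OR5A1, a receptor for beta-ionone, had 4.26, OR5AN1, a receptor for musks, 3.02 and OR2AG1 2.93. OR2J2 had 3.35, OR4E2 3.22 and OR5P3 3.04. With limma the smallest adjusted p among the 19 was 0.626, for OR3A1.

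Rapamycin before GSK621 was compared with GSK621 alone to see how far genes of this kind move between the groups. With limma, 0 of the 174 receptor genes reached an adjusted p under 0.05, beside 0 of all 24241 genes (0%), and the smallest adjusted p among them was 0.430. An unadjusted p under 0.05 was found for 19 receptor genes, 10 with higher and 9 with lower values after rapamycin, which is 5.75% and 5.17% beside 4.31% and 4.2% of all genes (8.51% in both directions). With a variance trend and robust estimation, which called 74 genes (0.305%), 0 receptor genes passed. The groups had separate values for 29 receptor genes with higher values (16.7%, beside 20.5% of all genes) and 29 with lower values (16.7%, beside 18.9%).

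The receptor genes as a set had no common direction. The median log2 difference, rapamycin then GSK621 minus GSK621, was 0.03, with 97 genes above 0 and 77 below. It came to −0.00099 with the second GSK621 array left out and to −0.02 with the second rapamycin array left out, so its sign rests on single arrays. Over all genes the median was 0.0045, with 12405 above 0 and 11836 below. Of the 63 receptor genes on chromosome 11, 42 lay above 0, and the groups did not overlap for 15 with higher values (23.8%, near the 20.5% of all genes) and 4 with lower values (6.35%, beside 18.9%). On chromosome 1, 14 of 30 lay above 0, and the groups did not overlap for 4 with higher values (beside 20.5% of all genes) and 9 with lower values (30.0%, beside 18.9%). These shares were not tested. In family 5, 29 of 44 lay above 0. All 3 genes of family 3 had lower values without overlap, where 18.9% of all genes did, at log2 differences of −0.28 for OR3A1, −0.29 for OR3A2 and −0.06 for OR3A3. Family 3 and these chromosomes were picked out after their values were seen, and signs of neighbours agreed in 86 of 161 pairs (53.4%).

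The spread of the differences was wider in the receptor genes than in all genes. The SD over the 174 genes was 0.24, and the central 95% ran from −0.47 to 0.54. Over all genes the SD was 0.19 and the central 95% ran from −0.39 to 0.37. A log2 difference above 0.5 occurred in 7 receptor genes (4.02%, beside 0.767% of all genes) and one below −0.5 in 3 (1.72%, beside 1.08%). These shares were 1.11% and 1.67% in the higher-numbered receptor families and 2.35% each in keratin-associated proteins. They were 0% in beta-defensins and bitter taste receptors. In bin 1 of signal, the SD was 0.21 for 120 receptor genes and 0.17 for 5941 others. In bin 2 it was 0.29 for 50 receptor genes and 0.19 for 6010 others. The higher-numbered receptor families had an SD of 0.21, keratin-associated proteins 0.21, beta-defensins 0.20 and bitter taste receptors 0.18. No test of these spreads was made, since genes on the same arrays are not independent.

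Replicates of 1 group also lay further apart in the receptor genes than in all genes, as they did in several other dim families. The median gap between replicates was 0.16 after GSK621 and 0.17 after rapamycin then GSK621, against 0.13 and 0.12 over all genes. It was 0.16 and 0.18 in the higher-numbered receptor families, 0.19 and 0.16 in keratin-associated proteins, and 0.15 and 0.23 in beta-defensins. Bitter taste receptors were closer to all genes, with 0.14 and 0.15. The 4 vomeronasal receptors had 0.20 and 0.08, the second below that of all genes. In bin 1 of signal it was 0.15 and 0.16 for the receptor genes and 0.14 and 0.14 for other genes, and in bin 2 it was 0.21 and 0.24 against 0.17 and 0.16. A gap above 0.5 in at least 1 group occurred in 37 receptor genes (21.3%), against 7.69% of all genes, bright ones included. This share was not split by signal. The mean of a gene's gaps exceeded the size of its difference between treatments in 115 of the 174 (66.1%), against 60.5% of all genes. The widest gap was that of OR2M7, a gene linked to the smelling of urine after asparagus. It had 1.89 and 3.59 on the arrays of rapamycin then GSK621 beside 2.59 and 2.16 on those of GSK621. OR5A1 had 4.67 and 3.60, OR1K1 4.02 and 4.99, and OR2A1 5.67 and 4.71 on the arrays of rapamycin then GSK621. Replicate 1 was the lower array in OR2M7 and OR1K1 and the higher one in OR5A1 and OR2A1. The SE of a difference had a median of 0.13 over the receptor genes and 0.11 over all genes.

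**Figure D4:**
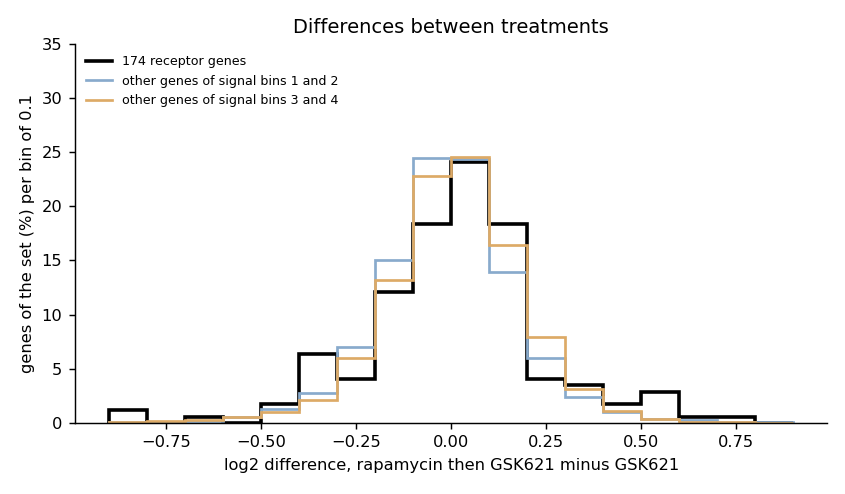
Share of genes (%) per bin of 0.1 of the log2 difference, rapamycin then GSK621 minus GSK621, for the 174 receptor genes (black) and for the other genes below (blue, bins 1 and 2) and above (orange, bins 3 and 4) the median signal. Other genes beyond −0.9 or 0.9 are not drawn. The black outline is centred near 0 like the others, with OR1L8 at −0.84 and OR2B11 at 0.71 as its ends and a larger share of genes above 0.5.

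Of the receptor genes with higher values after rapamycin, OR1F1 had the smallest unadjusted p. Its signal was 5.15 and 5.33 after GSK621 and 5.79 and 5.75 after rapamycin then GSK621, without overlap, a log2 difference of 0.53 ± 0.11 (SE). It lies on chromosome 16 where it overlaps tRNA genes, and the measured genes on either side were OR1F2P, a transcribed pseudogene, at 5.36 and CASP16P, another, at 5.63. OR2AG2 had 4.34 and 4.59 against 4.93 and 5.16, and OR1M1 had 4.25 and 4.23 against 5.06 and 4.67. OR5P2 followed with 3.19 and 3.31 against 3.61 and 3.85, OR5L2 with 4.80 and 4.46 against 5.22 and 5.10, and OR2T4 with 3.24 and 3.17 against 3.62 and 3.51. None of these 6 overlapped between groups, where 20.5% of all genes were higher without overlap. The 6 were picked by p, which favours separate groups, so the lack of overlap adds nothing to the p-values. Their differences ran from 0.36 for OR2T4 to 0.62 for OR1M1, folds of 1.28 to 1.54. With limma their adjusted p ran from 0.436 to 0.542.

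Of those with lower values, OR2A14 had the smallest unadjusted p, with 3.61 and 3.67 after GSK621 and 3.14 on both arrays of rapamycin then GSK621, a log2 difference of −0.50 ± 0.09. OR4F5 had 3.88 and 3.61 against 3.15 and 3.02, a difference of −0.66 ± 0.13. OR2T3 had 5.52 and 5.53 against 5.07 and 5.19, OR2AK2 had 3.71 and 3.69 against 3.31 and 3.40, and OR2M4 had 3.60 and 3.77 against 3.26 and 3.36. OR1L8 had the largest difference of the set in either direction, at −0.84 ± 0.23, from 5.37 and 4.69 after GSK621 and 4.14 and 4.25 after rapamycin then GSK621. It came to −0.50 without GSK621 replicate 1. The groups did not overlap in any of these 6, also picked by p, where 18.9% of all genes were lower without overlap. With limma the adjusted p of the 6 ran from 0.430 to 0.543. The largest difference upward was that of OR2B11, with 4.95 and 4.29 against 5.27 and 5.38, a difference of 0.71 ± 0.23 that came to 0.37 with the second GSK621 array left out.

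**Figure D5:**
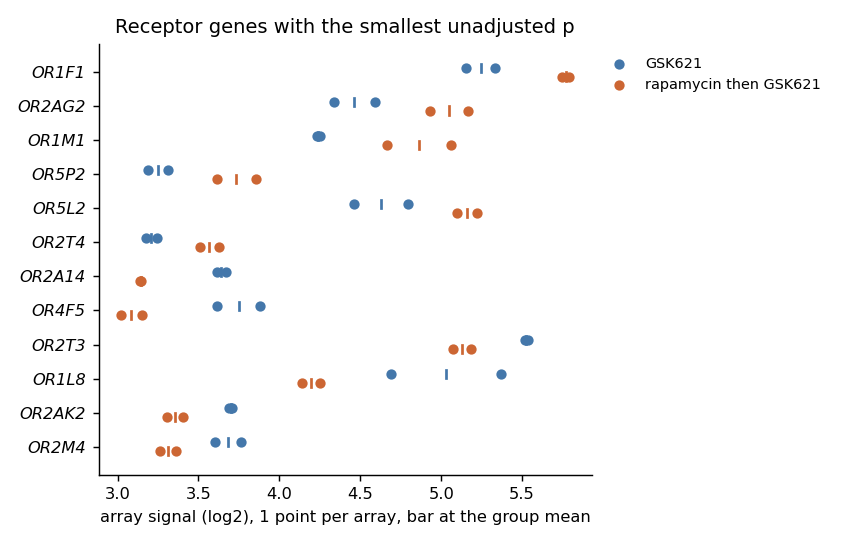
Signal (log2) of the 6 receptor genes with higher and the 6 with lower values after rapamycin that had the smallest unadjusted p, 1 point per array, coloured by group, with a bar at each group mean. The groups do not overlap in any of the 12, which the choice by p favours, and OR1L8 has the widest gap between its GSK621 replicates.

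The full range of the receptor genes, from −0.84 for OR1L8 to 0.71 for OR2B11, was set beside all other genes. Of 24067 others, 48 (0.199%) lay above it and 39 (0.162%) below it. In bin 1 of signal, 10 of 5941 lay above and 1 below, and in bin 4 10 of 6059 lay above and 8 below. The central 95% of the receptor genes, −0.47 to 0.54, left 132 other genes (0.548%) above and 328 (1.36%) below. The ends of the full range and the counts beyond it rest on single arrays. With the first GSK621 array left out the range ran from −1.19 to 1.04, with 20 genes above and 16 below, and with the second left out from −1.18 to 0.71, with 101 and 7. With the first rapamycin array left out it ran from −0.83 to 1.22, with 5 and 63, and with the second left out from −0.89 to 0.82, with 43 and 51. These counts describe 4 arrays and are not calls, and leaving out arrays for them was chosen after seeing the data.

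The genes that carry the receptor's signal in olfactory neurons were read beside the receptors. Of 18 listed, 17 were measured, with a median signal of 4.48. GNAL, the olfactory G protein alpha subunit, had a mean of 3.98, CNGA2, the channel subunit of olfactory neurons, 4.37, and the receptor transport protein RTP1 3.84. OMP, the marker protein of mature olfactory neurons, had 6.45. ADCY3, the adenylyl cyclase of the cilia, had 6.91 and GNB1, a G protein beta subunit used in most cells, had 11.2. Of the 17, GNB1 and GRK3 (8.05) lay above the range of the receptors, 2.05 to 7.43. OMP, ADCY3, RIC8B (7.11) and GNG13 (5.95) lay inside it, above every receptor gene but OR4C3. With limma 0 of 17 reached an adjusted p under 0.05. An unadjusted p under 0.05 was found for 1 with higher values (5.88%, near the 4.31% of all genes) and 0 with lower values (beside 4.2%). The gene was ADCY3, with 6.71 and 6.76 after GSK621 and 7.23 and 6.92 after rapamycin then GSK621, a log2 difference of 0.34 ± 0.13 (adjusted p = 0.584), which came to 0.19 without replicate 1 of rapamycin then GSK621. CNGB1, the beta subunit of the channel, had 0.22 ± 0.10. The chloride channel ANO2 had −0.30 ± 0.16, with −0.52 without replicate 1 of rapamycin then GSK621 and −0.08 without replicate 2.

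Genes that take part in the choice of 1 receptor in mouse olfactory neurons had a different pattern of signal. All 17 listed were measured, with a median of 7.64, and 13 lay above the median of all genes. The nuclear envelope protein LBR had 9.78, the histone demethylase KDM1A 9.58 and LDB1, a cofactor of LIM homeodomain factors, 9.50. The homeodomain factor EMX2 had 3.33 and EBF1 3.76. With limma 0 of 17 reached an adjusted p under 0.05. An unadjusted p under 0.05 was found for 1 with higher values (5.88%, beside 4.31% of all genes) and 4 with lower values (23.5%, beside 4.2%), and no test of these shares was made. ATF5, a stress-induced transcription factor that in mouse olfactory neurons follows the first receptor expressed, had 8.47 and 8.58 after GSK621 and 7.93 and 7.89 after rapamycin then GSK621, a log2 difference of −0.61 ± 0.10 (adjusted p = 0.413). The difference lay below the central 95% of the receptor genes and inside their full range, and ATF5, with a mean signal of 8.22 at percentile 84.6, is brighter than every receptor gene. EIF2AK3, the stress sensor kinase PERK, had 8.18 and 8.10 against 7.81 and 7.84, a difference of −0.32 ± 0.09. EBF1, a factor of B cells and olfactory neurons, had 3.83 and 4.04 against 3.64 and 3.52, a difference of −0.35 ± 0.12. The differences of EIF2AK3 and EBF1 lay within the central 95% of the receptor genes.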

How the data were processed

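Total RNA of 4 MOLM-14 cultures was measured on Affymetrix whole-transcript arrays, per the labels' protocols. The submitters' processing notes name R 2.15.3 and Partek without a role. How background and arrays were adjusted, and the log base, are not given in the sources used here. Deposited values were read as log2 signal from their range of 1.84 to 13.28. Detection calls were not used, and it is unknown which dim probe sets exceeded background.

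Platform symbols named 24244 of 25582 probe sets, with several symbols on 0. The brightest probe set was kept for the 3 symbols with more than 1, which gave 24241 genes. Values were used as deposited. Rapamycin then GSK621 minus GSK621 was fitted over all genes with limma 3.58.1 (lmFit, eBayes; R 4.3.3). Tests were two-sided, p-values were adjusted by the Benjamini-Hochberg method with a threshold of 0.05, and the fit rested on 2 residual and 3.39 prior degrees of freedom. Exact permutation of 4 arrays reaches no p under 0.333, so none was made. The fit was tested on simulated data with changes larger than that of any receptor gene. It therefore does not show whether changes of their size could be called. The number of arrays limits the precision. Figures were drawn with matplotlib.

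Named receptor genes are the 10 with the highest and 5 with the lowest mean, the 6 per direction with the smallest p, the 4 with the widest replicate gap, and 21 with known odorants or sites of study. All single-gene p-values come from limma. OR2B11, OR1D4, OR4C45, the family 3 genes and genes given as neighbours or overlaps were named after their values were seen. So were the signalling genes GRK3, RIC8B and GNG13. Members, lists and rules were chosen with earlier results of these data known. Alternatives were a replicate block, quantile normalization, centring, a filter on dim genes, other variance moderation, other handling of probe sets, a threshold of 0.1, protein-coding members alone and leaving out each array, the last also applied to the range after seeing the data.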

Additional observations from a re-analysis of the deposited data

How the results depend on the processing

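In limma, 0 receptor genes passed an adjusted p under 0.05 under each alternative run, beside 19 with an unadjusted p under 0.05 in the fit reported. Over all genes, 3 passed with genes above the median level alone, 74 with a variance trend and robust estimation and 1 without variance moderation. With genes above the median level alone, which keeps 4 receptor genes, their median log2 difference was −0.0566, its SD 0.334 and their median level 5.86, values that this filter sets. Leaving out each array in turn gave a median difference of −0.0188 to 0.0203, an SD of the differences of 0.269 to 0.312, wider by construction with fewer arrays, and a median level of 3.39 to 3.42. The sign of the set's median difference, 0.0277 with all arrays, thus depends on single arrays: −0.00099 came with the second GSK621 array left out, −0.0188 with the second array of the other group left out. For 19 named genes under 7 alternatives, the sign was kept in 132 of 133 values. In all of them but OR4C3 the groups did not overlap, so leaving out 1 array could not turn the sign. A replicate block cannot change a difference in this balanced design. The count of kept signs was thus largely set by the choice of genes and says little about stability. Counts of other genes beyond the receptor range, a repeat chosen after seeing the data, ran from 5 to 101 above and from 7 to 63 below. The 1 turned sign was that of OR4C3, at −0.18, whose difference became 0.0383 with the second rapamycin array left out and −0.398 with the first left out.

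With the replicate number as a block, 0 receptor genes and 0 genes passed. The set's median difference was again 0.0277, which the balanced design fixes, since a block changes only the error and not the difference. The labels do not say that a number pairs the cultures. Replicate 2 minus replicate 1 correlated at 0.0923 between the groups across all genes and 0.143 across the receptor genes. A repeat without near-identical copies was not run, because protein sequences were not used here.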
